A study of Mus musculus with 4 samples.

Results

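Krt13, Krt4, Krt24, Krt76 and Krt84, named here as oral mucosal keratins, were followed across 4 mouse tissue sections profiled with 10x Visium. All 5 genes were found by symbol, each in 1 row, among the 32285 genes of the deposited matrices and among 53 Krt genes. In Visium a tissue section is laid over spots that each carry a position barcode, and captured transcripts are counted by unique molecular identifiers (UMIs). A spot covers a patch of tissue and can mix cell types, so spots are neither cells nor replicates. The 4 sections were oral mucosa at postoperative day 4, oral mucosa unwounded, facial skin at postoperative day 4 and facial skin unwounded, all from wildtype mice and flash-frozen tissue. The labels give no age or strain, and nothing on how many animals the sections came from. Each group held 1 section. No test was therefore possible and no p-value is given, and every difference below is one between single sections. All 95% intervals are exact and cover counting error only, not the spread between animals.

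Keratins build the intermediate filaments of epithelial cells and work as pairs of an acidic type I and a basic type II chain. Basal cells of stratified epithelia make KRT14 with KRT5. As cells move up, cornified epidermis switches to KRT10 with KRT1, whereas the soft, stretchable lining of mouth and oesophagus switches to KRT13 with KRT4. Wounding or stress brings in KRT16 and KRT17 with the KRT6 chains. Among the 5 genes, Krt13 and Krt24 encode type I chains and Krt4, Krt76 and Krt84 type II chains. KRT76 is a keratin of the hard palate and other cornifying oral epithelium, and KRT84 is known as a hair keratin that is also found in tongue papillae.

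The genes lie in the type I cluster on chromosome 11 and the type II cluster on chromosome 15, and all are annotated as protein coding. In the GRCm38.p6 annotation, Krt13 (ENSMUSG00000044041) spans chromosome 11 from 100117327 to 100121566, and Krt24 (ENSMUSG00000020913) spans 99279959 to 99285262. On chromosome 15, Krt4 (ENSMUSG00000059668) spans 101918535 to 101924735, Krt76 (ENSMUSG00000075402) 101884351 to 101892920 and Krt84 (ENSMUSG00000044294) 101525026 to 101532820. RefSeq promoter windows of GRCm38.p6 were matched for Krt13, Krt24, Krt76 and Krt84, and none was listed for Krt4. The windows are shown as a description of genes that lie in the same 2 clusters. Any part of theirs in the levels below was not tested. Each line gives the 60 bases before the annotated start, all on the minus strand, 5′ to 3′, with a TATA-like ATAAA or TATAA in capitals.
Krt13, chr11:100121567-100121626: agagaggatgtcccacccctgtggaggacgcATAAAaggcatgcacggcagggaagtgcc
Krt24, chr11:99285263-99285322: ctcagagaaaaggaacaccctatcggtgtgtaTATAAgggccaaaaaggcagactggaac
Krt76, chr15:101892921-101892980: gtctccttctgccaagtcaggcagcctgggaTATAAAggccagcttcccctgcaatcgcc
Krt84, chr15:101532821-101532880: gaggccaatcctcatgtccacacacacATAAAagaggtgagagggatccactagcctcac
The motif began 29 bases before the start in Krt13, 28 in Krt24, 29 in Krt76 and 33 in Krt84. Such a motif on the sense strand lay in the same 60 bases of 3276 of the 32851 listed mouse promoters (9.97%). In Krt76 the capitals cover both letter strings, which overlap there. A second listed start of Krt13 had no match in its window. The letters CCACCC, searched on both strands, occurred in the 250 bases before the first Krt13 start and in none of the other listed windows of these genes, against 28.1% of all listed promoters. A match is a description of letters and not a measured site.

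The sections differed widely in depth and tissue content, which bears on every level below. Tissue spots numbered 430 in oral mucosa day 4, 1288 in oral mucosa unwounded, 1141 in facial skin day 4 and 671 in facial skin unwounded. Section totals ran from 3004174 UMIs in oral mucosa day 4 to 11939479 in facial skin unwounded. In oral mucosa unwounded 652 spots held under 100 UMIs. A count of 3 UMIs, used as the limit for a gene with none, equals 0.251 to 0.999 CPM (UMIs scaled to a common section total). Epithelial spots, defined by at least 500 UMIs and at least 0.5% of them from 12 epithelial genes that hold none of the 5 keratins (Krt5, Krt14, Trp63, Dsp and others), made up 28.8% and 17.2% of oral spots at day 4 and unwounded, and 72.0% and 97.5% of facial spots. Skeletal muscle genes took 4.99% and 6.0% of oral UMIs and at most 0.119% of facial UMIs. The 10 neutrophil genes took 0.397% of UMIs in oral mucosa day 4 and 0.00367% in oral mucosa unwounded, but 0.0266% in facial skin day 4 and 0.683% in the section labelled facial skin unwounded. Wound keratins ran the same way, at 0.697% and 0.443% in oral mucosa and 0.471% and 0.912% in facial skin. Xist had 84 and 909 UMIs in the oral and facial day 4 sections, against 0 and 1 UMIs in the unwounded ones, whereas the Y-linked Ddx3y had 0 UMIs in both day 4 sections and 280 and 587 in the unwounded ones. Wounding and the sex of the animal cannot be told apart in either tissue. Between 46 and 347 spot barcodes were shared by a pair of sections, since arrays carry the same barcodes at fixed positions.

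Krt13 and Krt4 were among the most abundant transcripts of both oral sections and were close to nothing in both facial sections. Krt13, the type I chain of the mucosal pair, had 55167 UMIs in oral mucosa day 4, 197399 in oral mucosa unwounded, 6 in facial skin day 4 and 27 in facial skin unwounded. Its level was 18364 CPM (95% interval 18210 to 18517) in oral mucosa day 4, 27097 CPM (26977 to 27216) in oral mucosa unwounded, 0.604 CPM (0.222 to 1.31) in facial skin day 4 and 2.26 CPM (1.49 to 3.29) in facial skin unwounded. By UMIs it held rank 3 of all genes in oral mucosa day 4 and rank 4 in oral mucosa unwounded. Krt4, its type II partner, had 30729, 109260, 7 and 15 UMIs in the same order of sections. That came to 10229 CPM (10115 to 10344) in oral mucosa day 4, 14998 CPM (14909 to 15087) in oral mucosa unwounded, 0.705 CPM (0.283 to 1.45) in facial skin day 4 and 1.26 CPM (0.703 to 2.07) in facial skin unwounded. For both genes the 4 intervals put the oral sections apart from each other and from the facial ones, while the facial intervals of Krt4 overlap. UMI counts carry no length correction, so ranks, pool shares and ratios between genes are of UMIs captured and not of transcripts per cell.

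The other 3 genes had at most 594 UMIs in any section, and their order over the sections differed from that of the pair and from one another. Krt24, a type I keratin of differentiating keratinocytes, had 3 UMIs in oral mucosa day 4, 594 in oral mucosa unwounded, 75 in facial skin day 4 and 162 in facial skin unwounded. In CPM these were 0.999 (0.206 to 2.92), 81.5 (75.1 to 88.4), 7.55 (5.94 to 9.46) and 13.6 (11.6 to 15.8), and no interval overlapped another. Krt76 had 1 UMI in oral mucosa day 4, 85 in oral mucosa unwounded (11.7 CPM, 9.32 to 14.4), 0 in facial skin day 4 and 1 in facial skin unwounded. For the 0 UMIs the limit of 3 UMIs equals 0.302 CPM, and the exact interval reaches 0.371 CPM. Krt84 went against the name of the group, with 2 UMIs in oral mucosa day 4 and 21 in oral mucosa unwounded, against 18 in facial skin day 4 and 144 in facial skin unwounded. Its level was highest in facial skin unwounded, at 12.1 CPM (10.2 to 14.2), and the intervals of the other 3 sections, at 0.666 CPM (0.0806 to 2.40), 2.88 CPM (1.78 to 4.41) and 1.81 CPM (1.07 to 2.86), overlap.

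**Figure D1:**
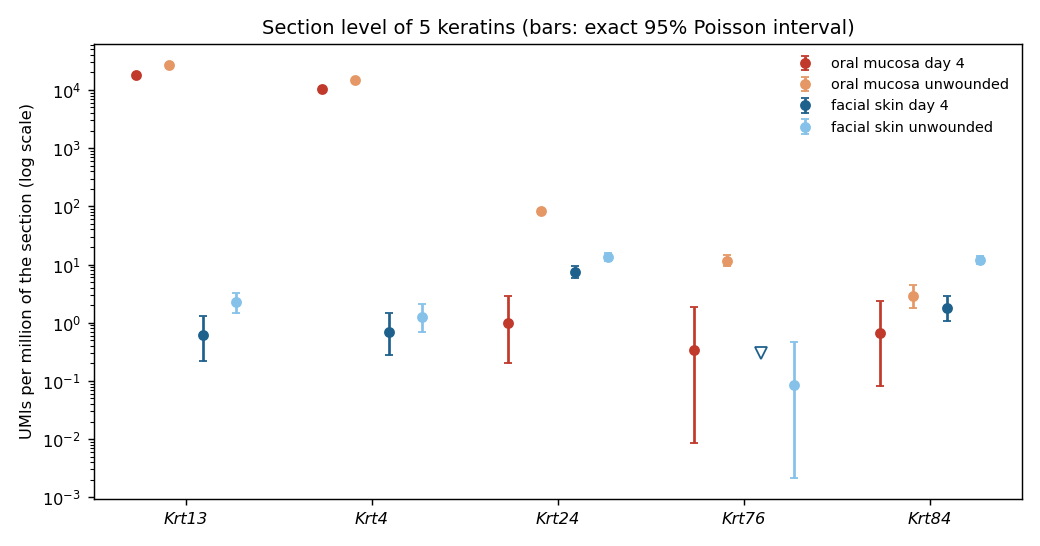
Level of each keratin in each section, in CPM on a log scale, with exact 95% Poisson intervals as bars; the open triangle marks the limit of 0.302 CPM for Krt76, which had 0 UMIs in facial skin day 4. Krt13 and Krt4 lie above 10000 CPM in both oral sections and at or below 2.26 CPM in both facial sections, while Krt84 is highest in facial skin unwounded.

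The oral keratin pool was made mostly of this pair. The 5 genes together held 69.7% of all keratin UMIs in oral mucosa day 4 and 83.9% in oral mucosa unwounded, against 0.0225% in facial skin day 4 and 0.0750% in facial skin unwounded. Krt13 alone took 44.8% (44.5 to 45.1) of the pool in oral mucosa day 4 and 53.9% (53.7 to 54.0) in oral mucosa unwounded, and Krt4 took 24.9% and 29.8%. The basal keratins Krt5, Krt14 and Krt15 took 10.5% of the oral pool at day 4 and 4.91% unwounded. The wound keratins Krt6a, Krt6b, Krt16 and Krt17 took 17.0% at day 4 and 8.81% unwounded. Krt1, Krt2, Krt10, Krt77, Krt78 and Krt80 were listed here as epidermal differentiation keratins. In facial skin they filled 61.4% of the pool at day 4 and 36.4% unwounded, against 2.15% and 2.08% in oral mucosa. Most of the oral part was Krt78, at 1.39% and 1.44%. Krt78 took only 0.482% and 0.469% of the facial pools, so it ran the other way from the group. Keratins as a whole took a similar part of every section, from 3.90% of UMIs in facial skin unwounded to 5.03% in oral mucosa unwounded.

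**Figure D2:**
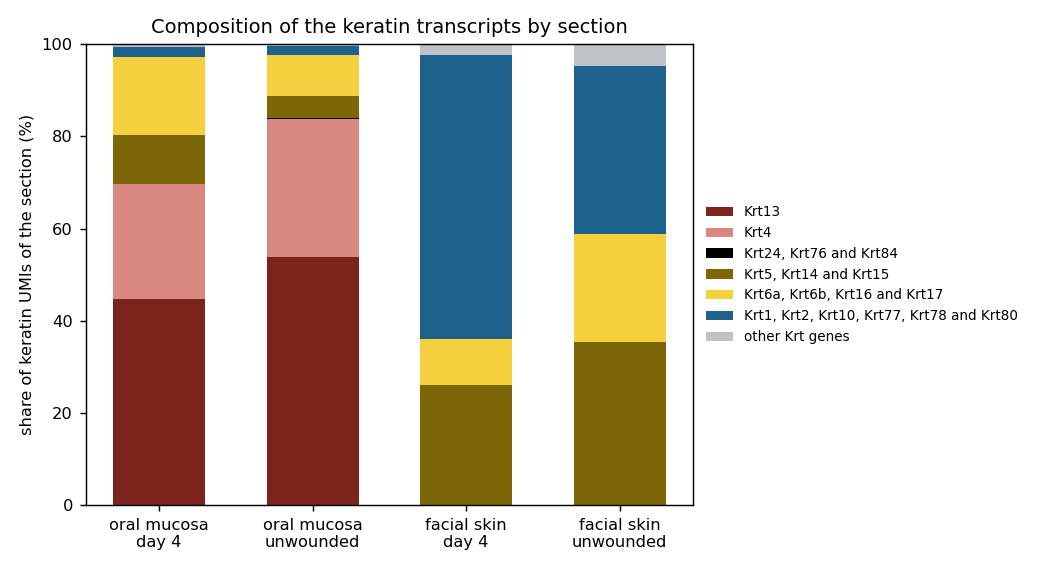
Composition of the keratin transcripts of each section, as the share of UMIs of all Krt genes in percent. Krt13 and Krt4 together fill most of both oral bars and are not visible in the facial bars, and the basal and wound keratins are wider in oral mucosa day 4 than in oral mucosa unwounded.

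The first comparison set the wounded oral section against the unwounded one. Krt13 and Krt4 were 1.48-fold and 1.47-fold lower at day 4, just inside the limit of 1.5-fold, while Krt24 and Krt76 were nearly gone. On the log2 scale the ratio of day 4 to unwounded CPM was -0.56 (-0.57 to -0.55) for Krt13 and -0.55 (-0.57 to -0.53) for Krt4. Krt24 was 81.7-fold lower, with a log2 ratio of -6.35 (-8.63 to -4.80) resting on 3 UMIs against 594. Krt76 had a log2 ratio of -5.13 (-10.45 to -2.61), from 1 UMI against 85. Krt84, with 2 UMIs against 21, had a ratio of -2.11 (-5.25 to -0.08). Fewer cells making a transcript and less of it per cell cannot be told apart in spots that mix cells. A gene counted as higher or lower here when it differed at least 1.5-fold, its Poisson intervals did not overlap and its UMIs in the pair of sections summed to at least 20. By this rule 0 of the 5 keratins were higher and 2 (Krt24 and Krt76) were lower, where 20.6% of 12544 genes were higher and 3.56% lower. The median log2 ratio, with 10 CPM added to both sides, was 0.18 over the 8532 genes with at least 100 UMIs in the pair of sections, and relative to it Krt13 stood at -0.74 and Krt4 at -0.73.

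The size of the Krt13 and Krt4 difference depended on what it was measured against. Per 1000 UMIs of the 12 epithelial genes there were 2170 Krt13 UMIs in oral mucosa day 4 and 4056 in oral mucosa unwounded, a 1.87-fold difference, and 1209 and 2245 Krt4 UMIs, a 1.86-fold difference. Both then counted as lower. Within epithelial spots alone the CPM was 39564 at day 4 and 51053 unwounded for Krt13, and 21883 and 27804 for Krt4, log2 ratios of -0.37 and -0.35. The epithelial gene list holds Krt14 and Krt5, and Krt14 was 2.37-fold higher at day 4. Against its 10 genes other than keratins the log2 ratio was -0.53 for Krt13 and -0.52 for Krt4, and neither counted as lower. With TMM factors in place of section totals the ratios were -0.90 and -0.89 and both genes counted as lower, and as a mean over spots of spot CPM, in which the many shallow spots of oral mucosa unwounded weigh as much as deep ones, they were -1.86 and -2.03.

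Which piece of tissue was on the array also moved these ratios. The 4 parts of a section were obtained by cutting it at the median row and the median column of its spots. Without the third part of oral mucosa day 4, which held 168 spots and only 17 epithelial ones, the log2 ratio of Krt13 was 0.02 and that of Krt4 -0.02. Without the third part of oral mucosa unwounded, which held 145 of its 221 epithelial spots, the ratios were 0.14 and 0.06. Without the second part of oral mucosa day 4 they were -1.29 and -1.22, without its first part -0.66 and -0.63, and without the fourth part of oral mucosa unwounded -1.17 and -1.12, and both genes then counted as lower. The Krt76 ratio was -2.98 (-8.41 to -0.20) without the third part of oral mucosa unwounded and no longer counted as lower, and the Krt84 ratio was -3.11 (-6.26 to -1.05) without the fourth part of that section and counted as lower. Per 1000 epithelial UMIs the order of the day 4 parts differed from that of their CPM. The 3 day 4 parts with epithelial spots had 1199.7, 2344 and 3629 Krt13 UMIs, against 5248, 5304, 4040 and 4058 in the 4 unwounded parts. Every one of these day 4 parts was thus below every unwounded part. Parts 1 and 2 of oral mucosa unwounded, however, held 1 epithelial spot each and only 246 and 125 epithelial UMIs. Parts 3 and 4 of that section held 31522 and 16775. The separation thus rests mainly on parts 3 and 4, at 4040 and 4058 against at most 3629 at day 4. The epithelial UMIs here include Krt14, which was 2.37-fold higher at day 4. Values by part against the non-keratin genes were not computed. The Krt4 values were 619, 1277 and 2297 against 2614, 3160.0, 2166 and 2380. They overlap only where part 3 of day 4 exceeded part 3 of oral mucosa unwounded.

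Other keratins and differentiation genes did not all move the way Krt13 and Krt4 did, and their counts stand against 20.6% of all genes higher and 3.56% lower. Of the 4 wound keratins 2 were higher in oral mucosa day 4 and 0 lower, with a median log2 ratio of 0.98 against 0.18 for the 8532 genes. Krt17, a keratin of activated keratinocytes, was at 539 CPM at day 4 and 32.3 CPM unwounded, and Krt16 was 3.06-fold higher. Of 8 basal genes 3 were higher and 1 lower. Krt14 and the integrin chain Itga6 (1.88-fold) were among the higher ones and Krt15, a keratin of resting basal cells, was 4.05-fold lower. Krt10, the suprabasal keratin of epidermis, was 3.84-fold lower at day 4, and was the 1 gene of 4 epidermal differentiation keratins compared that passed. Among 28 genes of mucosal and suprabasal differentiation 8 were higher and 1 lower, shares near those of all genes, with a median of 0.14 against 0.18. The higher ones included Anxa1, at 1339 CPM at day 4 and 211 CPM unwounded, Mal (11.6-fold) and Psca (4.52-fold). Cornified envelope genes were split, with filaggrin (Flg) 21.1-fold higher, Hrnr 1.56-fold lower and 7 of 9 neither. The Flg ratio rests on few UMIs in oral mucosa unwounded. Of 15 epithelial transcription factors, Elf5 was 2.38-fold higher, and Ovol1 and Pax9, a regulator of oral epithelium, were 1.72-fold and 1.60-fold lower. All 7 salivary gland genes compared and all 10 neutrophil genes were higher in the day 4 section, as were all 4 keratins of simple epithelia, such as Krt18 (31.3 CPM at day 4 and 0.549 CPM unwounded). Salivary gland genes summed to 0.394% of UMIs at day 4 and 0.00346% unwounded. Of 8 fibroblast genes 5 were higher, and of 10 skeletal muscle genes 4 were lower. Transcripts of gland, neutrophils, stroma and muscle thus moved together with the keratin difference, and their part in it was not tested. In spots with under 1% salivary gland UMIs the log2 ratio of Krt13 was -0.49 and that of Krt4 -0.48, in spots with under 1% neutrophil UMIs the Krt4 ratio was -0.52, and in spots with under 1% skeletal muscle UMIs the ratios were -0.92 and -0.90.

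The second comparison, of unwounded oral mucosa with unwounded facial skin, again set the mucosal pair apart. The log2 ratio of oral to facial CPM was 13.55 (13.01 to 14.15) for Krt13 and 13.54 (12.82 to 14.38) for Krt4. With 10 CPM added to both sides they held ranks 1 and 2 of all 14026 genes compared. Krt24 was 6.01-fold higher in oral mucosa, with a log2 ratio of 2.59 (2.33 to 2.85), and Krt76 had a ratio of 7.12 (4.61 to 12.44) against 1 facial UMI, which was 4.97 and no longer counted as higher without the third part of oral mucosa unwounded. Krt84 was 4.18-fold lower in oral mucosa, at -2.06 (-2.80 to -1.40). Thus 4 of the 5 keratins were higher and 1 lower, where 10.1% of 14026 genes were higher and 59.7% lower and the median log2 ratio was -0.60 over the 11332 genes with at least 100 UMIs. Per epithelial UMI the Krt84 ratio was -0.34 (-1.07 to 0.33) and it no longer counted as lower.

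The lists around the pair are read against the shares over all genes in this contrast, 10.1% higher and 59.7% lower. Of 29 mucosal and suprabasal genes 11 were higher and 9 lower in unwounded oral mucosa, with a median of 0.07. The small proline-rich envelope precursor Sprr3 stood out with 16715 UMIs in oral mucosa and 3 in facial skin, and Tgm3, which crosslinks envelope proteins, was 13.3-fold higher. Of the 6 epidermal differentiation keratins 5 were lower, among them Krt1 at 4.67 CPM in oral mucosa and 7043 CPM in facial skin. The remaining 1, Krt78, was higher, at 722 CPM in oral mucosa and 183 CPM in facial skin. Of 10 cornified envelope genes 0 were higher and 7 lower, with Flg at 10 UMIs against 40286, a count near the share over all genes. Of the 16 transcription factors 6 were higher, among them Pitx1 (144 CPM in oral mucosa and 1.68 CPM in facial skin), a patterning factor of the oral region. Gata3, a regulator of epidermal and hair differentiation, was among 8 lower ones, also near that share, at 0.549 CPM against 110 CPM. All 6 hair follicle genes compared were lower, such as Krt25 at 0.137 CPM in oral mucosa and 24.8 CPM in facial skin.

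At day 4 the pair again separated the tissues, and Krt24 had changed sides. The log2 ratio of oral to facial CPM was 14.89 (13.77 to 16.34) for Krt13 and 13.83 (12.78 to 15.14) for Krt4, in ranks 1 and 2 of 13633 genes. Krt24 was 7.56-fold lower in oral mucosa day 4, at -2.92 (-5.23 to -1.32), from 3 UMIs against 75. Krt84, at 2 against 18 UMIs, had a ratio of -1.44 (-4.60 to 0.62), and Krt76 had too few UMIs to be compared. Of the 4 keratins compared 2 were higher and 1 lower, where 11.5% of genes were higher and 35.5% lower. Per epithelial UMI the Krt24 ratio was -1.67 (-3.98 to -0.07) and it did not count as lower. Of 27 mucosal and suprabasal genes 13 were higher and 8 lower, again led by Sprr3 (2888 CPM in oral mucosa and 0.201 CPM in facial skin), and the desmosomal cadherin Dsc2 was 27.1-fold higher. These comparisons share sections with one another, so their values are not independent.

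In facial skin 3 of the 4 keratins that could be compared were lower at day 4, Krt13 among them with only a few UMIs. Krt84 was 6.66-fold lower, with a log2 ratio of day 4 to unwounded of -2.73 (-3.53 to -2.02). Krt24 was 1.80-fold lower, at -0.85 (-1.26 to -0.44), but without the first part of facial skin unwounded its ratio was -0.29 (-0.75 to 0.17) and it no longer counted as lower. Krt13, at 6 against 27 UMIs, had a ratio of -1.90 (-3.47 to -0.60), and Krt4, at 7 against 15, one of -0.83 (-2.37 to 0.55). The Krt13 call was lost without the third part of facial skin day 4 (-1.43), the second part of facial skin unwounded (-1.79) or the third part of that section (-1.42). Of the 4 keratins compared 0 were higher and 3 lower, where 6.09% of 14231 genes were higher and 8.59% lower. The facial section labelled unwounded was the richer one in neutrophil genes, all 10 of which were lower at day 4, and in wound keratins, all 4 of which were lower, such as Krt16 (1998 CPM at day 4 and 4162 CPM unwounded). The part of either in the result was not tested. In spots with under 1% neutrophil UMIs the ratio was -2.74 for Krt84, -1.02 for Krt24 and -1.61 for Krt13, and Krt13 no longer counted as lower. Epidermal differentiation keratins ran the other way, with 4 of 6 higher at day 4, among them Krt10 (2.31-fold).

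Within the oral sections Krt13 and Krt4 followed the epithelium. Krt13 was detected in 380 of 430 spots (88.4%, 85 to 91.2) of oral mucosa day 4 and in 1084 of 1288 spots (84.2%, 82.1 to 86.1) of oral mucosa unwounded. Up to 3373 Krt13 UMIs fell on a single spot at day 4 and up to 4183 in the unwounded section. Epithelial spots held 90.6% of the Krt13 UMIs at day 4 and 77.7% unwounded. The 10 richest spots held 42.5% and 14.8%, but the sections differ in their number of spots. The richest 5% of spots, 22 at day 4 and 64 unwounded, held 63.9% and 52.4%. These shares are not on a like footing either, since 652 unwounded spots held under 100 UMIs, against 8 at day 4. Every epithelial spot had a Krt13 UMI in both sections, and all but 2 of 124 at day 4 had a Krt4 UMI. The share of spots says little outside the epithelium. After thinning each spot of at least 1000 UMIs to 1000, which left out 65 oral spots at day 4 and 765 unwounded, and 45 and 18 facial spots, Krt13 was found in 99.2% of epithelial and 73.0% of other spots at day 4 (median depth 6986 and 6214 UMIs before thinning), and in 100% and 95.6% in the unwounded section (12870 and 14131 UMIs). Before thinning these shares were 100% and 94.3% at day 4 and 100% in both classes of the unwounded section. In facial skin the thinned share was 0.0912% of 1096 spots at day 4 and 0.153% of 653 spots unwounded.

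**Figure D3:**
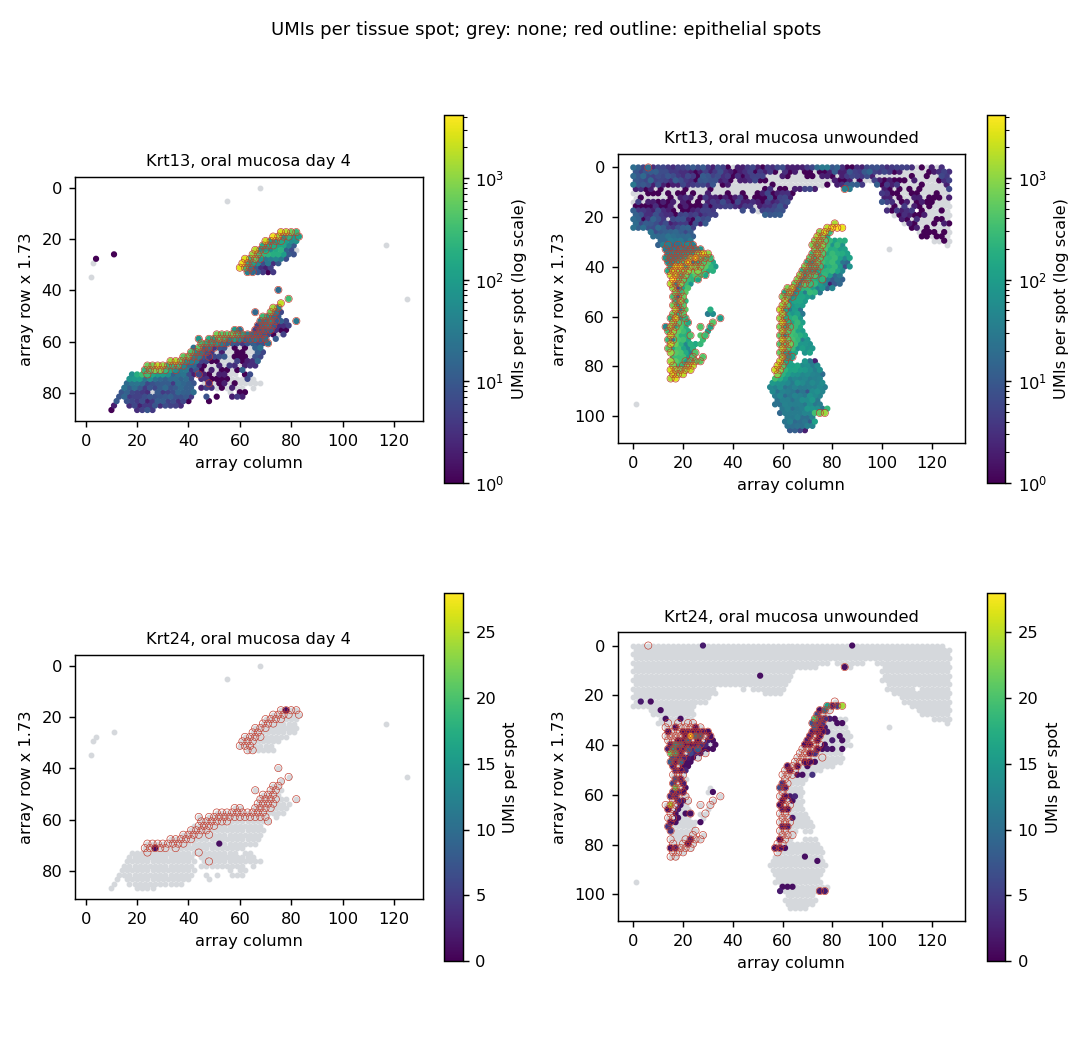
Krt13 (top, log colour scale) and Krt24 (bottom) UMIs in each tissue spot of the oral sections, day 4 at left and unwounded at right, drawn at array positions; grey spots have none and red rings mark epithelial spots. Krt13 peaks along the ringed edges with up to 3373 UMIs in a spot at day 4 and 4183 unwounded, and Krt24 has 3 UMIs in the whole day 4 section and up to 28 in a spot of the unwounded one.

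Away from the epithelium the level was lower, down to 5 steps at day 4 and 6 steps in the unwounded section, and the ratio of the pair was slightly lower too. In oral mucosa day 4 Krt13 stood at 39564 CPM in the 124 epithelial spots, 8015 CPM in the 66 spots 1 array step away, 2309 CPM at 3 steps, 781 CPM at 5 steps, 796 CPM at 6 steps and 577 CPM in the 48 spots at 7 or more steps. In oral mucosa unwounded it stood at 51053 CPM in 221 epithelial spots, 19817 CPM at 1 step, 8434 CPM at 3 steps and 2919 CPM at 6 steps. At 7 or more steps it was higher again, at 5029 CPM, over 595 spots with a median of 33 UMIs each. The Krt13 to Krt4 ratio was 1.80 (1.77 to 1.82) in the day 4 section and 1.81 (1.79 to 1.82) in the unwounded one. Over the distance rings it stayed between 1.49 and 1.81 at day 4 and between 1.63 and 1.84 in the unwounded section. In non-epithelial spots as a whole it was 1.68 (1.61 to 1.76) at day 4 and 1.71 (1.68 to 1.74) unwounded, against 1.81 (1.78 to 1.83) and 1.84 (1.82 to 1.85) in epithelial spots, and the intervals did not overlap in either section. The very shallow spots of oral mucosa unwounded, with under 100 UMIs, had 56943 Krt13 CPM (54045 to 59955), close to the level of epithelial spots, and together they held 1446 of its 197399 Krt13 UMIs.

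**Figure D4:**
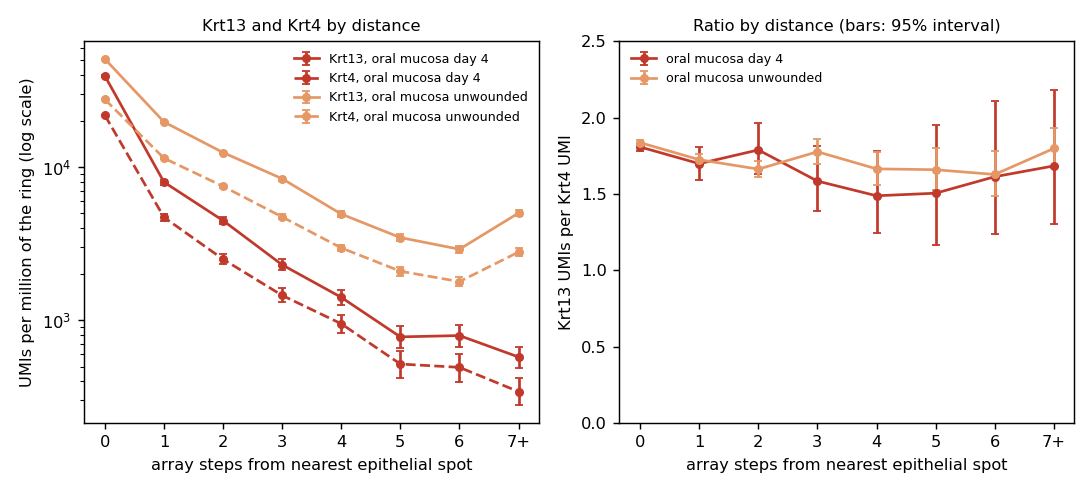
Krt13 (solid) and Krt4 (dashed) in CPM by distance from the nearest epithelial spot in array steps, log scale, and the Krt13 to Krt4 ratio by the same distance, in both oral sections; bars are exact 95% intervals for counting error. Both genes are highest in the epithelial spots and lower outward, to 577 Krt13 CPM at 7 or more steps at day 4 and 2919 at 6 steps unwounded, where the last ring is higher again at 5029, while the ratio stays between 1.49 and 1.84.

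Among epithelial spots the day 4 section was far more uneven. The CPM of Krt13 per epithelial spot ran from 484 through a median of 20768 to 103940 at day 4, and from 10439 through 47759 to 125371 in the unwounded section. The quartiles were 6638 and 45586 at day 4 and 30087 and 70376 unwounded, so the lower quartile of day 4 spots lay below every unwounded epithelial spot. Krt4 had a median of 7498 CPM per epithelial spot at day 4 and 24000.0 CPM unwounded.

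The spread within the day 4 epithelium ran against wound and basal keratins. When the 124 epithelial spots were ranked by the share of the 4 wound keratins and cut into 4 classes of equal size, a split added after the data had been seen, Krt13 was at 57064 CPM in the lowest class, 54442 in the next, 23258 in the third and 20022 in the highest. Krt4 was at 32656, 32524, 12268 and 8354 CPM in the same classes. In oral mucosa unwounded the order differed, with Krt13 at 48852, 42928, 45234 and 76069 CPM from the lowest to the highest class, whose spots were shallow at a median of 3533 UMIs. By the share of basal genes, day 4 Krt13 was at 66238, 37469, 30453 and 15528 CPM from the lowest class to the highest, and unwounded Krt13 at 56706, 49067, 55557 and 43838 CPM. Keratin shares of a spot add up to a common total, so some opposition is built into these values. Neutrophil genes moved with them at day 4, since Krt13 was at 57190 and 55667 CPM in the 2 lower neutrophil classes and 15839 and 23483 CPM in the 2 upper ones, and their part in the result was not tested.

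The ratio of the pair did shift within the epithelium. At day 4 there were 1.75 Krt13 UMIs per Krt4 UMI in the lowest wound keratin class and 2.40 in the highest, and in the unwounded section 1.5 and 2.39. Ranked by basal genes the ratio was 1.72 in the lowest and 2.68 in the highest class at day 4, but 1.84 in both in the unwounded section. In both sections the ratio was thus higher in the spots richest in wound keratins, but at day 4 it moved with other measures as well. It was 1.72, 1.7, 2.53 and 2.09 from the lowest to the highest neutrophil class, and 2.42 in the lowest and 1.77 in the highest class of mucosal differentiation. Depth was compared over all day 4 spots with at least 1000 UMIs, most of them not epithelial. There the ratio was 2.20 in the shallower class (135 spots, 33 epithelial) and 1.78 in the deeper class (230 spots, 88 epithelial). The part of each in the ratio was not tested. Set against other keratins of the whole section, there were 6.05 Krt13 UMIs per Krt14 UMI at day 4 and 21.2 unwounded, and 8.30 Krt4 UMIs per Krt5 UMI at day 4 and 13.5 unwounded. Per UMI of Krt16 there were 13.5 Krt13 UMIs at day 4 and 61.1 unwounded.

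**Figure D5:**
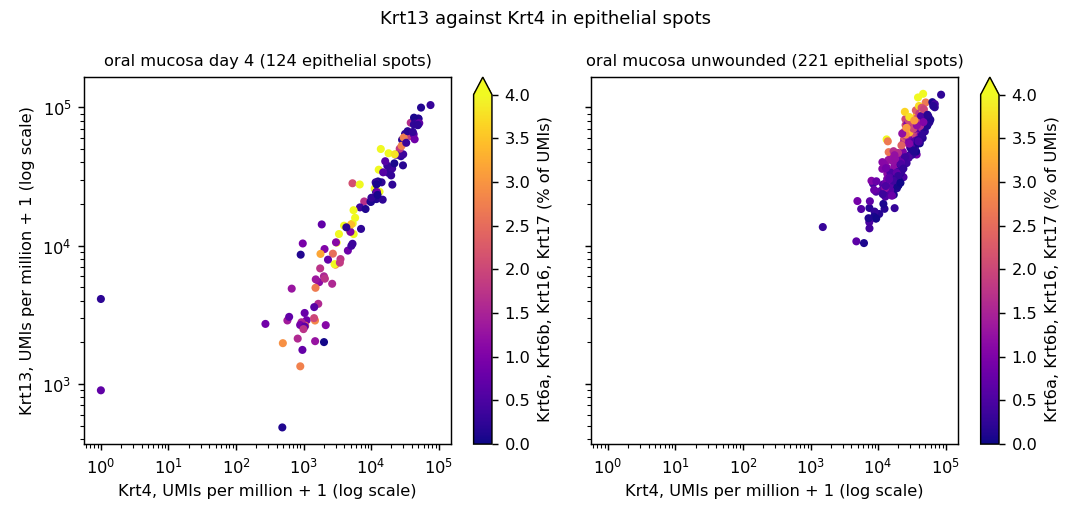
Krt13 against Krt4 in the epithelial spots of oral mucosa day 4 (left, 124 spots) and unwounded (right, 221 spots), in CPM plus 1 on log axes, coloured by the share of UMIs from Krt6a, Krt6b, Krt16 and Krt17. Both clouds are narrow, the day 4 cloud reaches down to 484 Krt13 CPM where the unwounded one ends at 10439, and spots rich in wound keratins lie above the others in Krt13 for a given Krt4.

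In oral mucosa unwounded Krt24 and Krt76 lay on few spots. In oral mucosa unwounded Krt24 had a UMI in 178 of 1288 spots and 83.2% of its UMIs lay in epithelial spots, of which 112 of 221 (50.7%) had a UMI. After thinning it was found in 19.8% of 202 epithelial spots and 2.49% of 321 other spots. Its level rose with the wound keratin class, at 31.3 CPM in the lowest class and 77.2, 180 and 486 CPM in the following ones. At day 4 its 3 UMIs lay in 3 spots, and the upper 2 wound keratin classes of 31 epithelial spots each, where these keratins took 1.39% and 3.82% of UMIs, had none. Krt76 had 85 UMIs in 35 unwounded oral spots, 26 of them in a single spot, and the 10 richest spots held 69.4%. The third part of that section carried 74 of the 85, together with 18 of the 21 Krt84 UMIs. In facial skin unwounded Krt84 had a UMI in 75 of 671 spots (11.2%) and up to 13 in a spot, and Krt24 in 96 spots. Nearly all spots of that section were epithelial (97.5%), so a share of UMIs in such spots says nothing there.

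Over all spots with at least 1000 UMIs, the genes whose pattern was most like that of Krt13 included Lor, Sprr3 and Tgm3 in both oral sections. They encode cornified envelope proteins and a crosslinking enzyme. Likeness was Spearman's correlation over spots with at least 1000 UMIs, among genes with at least 200 UMIs in the section, and is given as a description because spots share depth and epithelial content. Over 365 spots of oral mucosa day 4 the 10 genes most like Krt13 were Lor (0.85), Fam25c (0.83), Sprr3 (0.82), Krtdap (0.79), Dmkn (0.79), Tgm3 (0.76), Rptn (0.76), Tmprss11a (0.75), Crct1 (0.75) and Lce3f (0.74). Over 523 spots of oral mucosa unwounded they were Krtdap (0.95), Fam25c (0.93), Lor (0.93), Fabp5 (0.92), Tgm3 (0.91), Sprr3 (0.90), Calm4 (0.90), Rptn (0.90), Perp (0.90) and Serpinb3a (0.90). The day 4 and unwounded lists shared 6 of 10 genes for Krt13 and 7 of 10 for Krt4, and the lists of Krt13 and Krt4 shared 9 of 10 within each section. Krt13 and Krt4 themselves correlated at 0.89 over all such spots and 0.97 over epithelial spots at day 4, and at 0.97 and 0.89 unwounded. Over epithelial spots alone Lor stayed among the 10 genes most like Krt13 at day 4 (0.90) and unwounded (0.89). Sprr3 was among them only unwounded (0.85) and Tgm3 only at day 4 (0.89). Over the same spots the share of wound keratins correlated with Krt13 at -0.31 at day 4 and 0.35 unwounded. The share of cornified envelope genes did so at 0.92 and 0.89. Krt24 had another set of neighbours in oral mucosa unwounded, namely Krt6a (0.54), Krt6b (0.54), Krt16 (0.52), Sprr1b (0.50) and Krt10 (0.49), and its correlation with Krt13 was 0.48 over all spots and 0.25 over epithelial ones. Krt76 correlated most with Dnase1l2, Anxa9, Pla2g4d, Hrnr and Lce3d, at 0.33 to 0.36, values too weak and counts too sparse to read as a shared pattern.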

How the data were processed

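Raw UMI counts per gene and spot, as the authors deposited them, come from Space Ranger (version 1.3.1, per the file headers). Seurat and the mm10 build appear in the submitters' processing notes. Neither aligner nor annotation release is given in the sources used here. Postoperative days 2 and 7 and the single-cell and bulk data of the series were not analysed here, nor were tissue images. The tissue flag, array row and column and spot diameter deposited by the authors gave the spot positions.

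Counts were summed over all tissue spots of a section and scaled to a common total per section (CPM). CPM carry exact 95% Poisson intervals, shares Clopper-Pearson intervals and ratios exact conditional intervals. Levels, pool shares and ratios used Python 3.11.15, numpy 2.4.6 and scipy 1.17.1, and TMM factors edgeR 4.0.16. The 5 genes, 14 other lists of 136 genes and the comparisons were chosen with earlier results of these data known. Of the hair follicle list 1 symbol was unmatched. Named genes were the 5 keratins, up to 3 genes per list with the largest absolute log2 ratio (10 CPM added), and the genes most like each keratin across oral spots. The call rule was also run on simulated Poisson counts, which hold counting error only and no spread between animals or pieces of tissue.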

Additional observations from a re-analysis of the deposited data

Results flagged for a closer look

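Krt24 was singled out because its oral to facial difference ran in opposite directions in the wounded and unwounded pairs of sections. The log2 ratio of oral to facial CPM was -2.92 at day 4 (3 UMIs against 75) and 2.59 in unwounded tissue (594 UMIs against 162). The difference between these ratios was not tested, since each group held 1 section. At day 4 the ratio per epithelial UMI was -1.67 (-3.98 to -0.07), and Krt24 then did not count as lower.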

How the results depend on the processing

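Krt13 and Krt4 sat so close to the 1.5-fold limit in the oral wound comparison that the scaling decided whether they counted as lower. Their log2 ratios, -0.56 and -0.55 in the main analysis, were -0.90 and -0.89 with TMM scaling, -0.75 each with a total that left out mitochondrial genes and the 50 most abundant ones (54 genes, both keratins among them), and -1.86 and -2.03 as a mean over spots of spot CPM, which gives shallow spots equal weight. They were -0.53 each in spots with at least 1000 UMIs, -0.92 and -0.90 in spots with under 1% skeletal muscle UMIs, and -0.49 and -0.48 in spots with under 1% salivary gland UMIs. For Krt4 the ratio was -0.52 in spots with under 1% neutrophil UMIs. In epithelial spots they were -0.37 and -0.35, with a share of at least 0.25% -0.27 and -0.26, and with at least 1% -0.47 and -0.46. Per UMI they were -0.90 and -0.89 against the epithelial genes, -0.53 and -0.52 against the non-keratin ones, -0.27 and -0.26 against all Krt genes and -0.79 and -0.78 against mucosal differentiation genes. Leaving out 1 part of a section gave -1.29 to 0.14 for Krt13 and -1.22 to 0.065 for Krt4, and per epithelial UMI -1.09 to -0.67 and -1.07 to -0.65.

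Of the 5 keratins 2 counted as lower in oral mucosa day 4. This number was 4 with TMM scaling, the reduced total, under 1% skeletal muscle, the epithelial and the mucosal genes as denominator, 5 with the mean over spots, 1 with a minimum of 100 UMIs and 1 to 5 with a part left out. Lower in oral than facial tissue was 1 keratin in each pair. In unwounded tissue it was 0 with under 1% skeletal muscle and per epithelial UMI. At day 4 it was 2 with the mean over spots and 0 in spots with a share of at least 1%, per UMI of either epithelial list and with a minimum of 100 UMIs. With a part left out, 2 to 3 were lower in facial skin day 4 and 3 to 4 higher in unwounded oral mucosa. No value changed sign under the other settings. In epithelial spots Krt13 and Krt4 held 44.4% and 24.6% of keratin UMIs at day 4 and 53.6% and 29.2% unwounded, with an unwounded Krt13 to Krt4 ratio of 1.84. With a part left out the shares were 41.8% to 47.7% and 23.3% to 26.9% at day 4 and 53.5% to 54.0% and 29.0% to 31.3% unwounded, and the ratios 1.72 to 1.85 and 1.71 to 1.87. Over all settings and parts, 86 of the values and counts above moved beyond their counting interval or by over 1.5 times and 206 did not, and of the values of Krt24, Krt76, Krt84 and the remaining ratios 38 moved and 309 did not. The cause of these differences was not tested. Levels of 1 to 3 UMIs limit what can be said of Krt24, Krt76 and Krt84 at day 4. No paired analysis was possible because each group held 1 section.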

Other observations

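Krt32, named here after its values were seen, was another keratin with a higher CPM in oral than in facial tissue. It had 33 UMIs (11 CPM) in oral mucosa day 4 and 222 UMIs (30.5 CPM) in oral mucosa unwounded, against 37 UMIs (3.72 CPM) in facial skin day 4 and 19 UMIs (1.59 CPM) in facial skin unwounded.

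In facial skin unwounded, which lay outside the naming rule, the genes most like Krt24 across spots were Krt75 (0.31), Scp2 (0.30) and Tbx1 (0.30), and those most like Krt84 were Lipk (0.30), Nccrp1 (0.29) and Hrnr (0.29). These correlations are weak and rest on 162 and 144 UMIs.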
